A study of Mus musculus with 15 samples.

Results

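The comparison described here is between 3 libraries of mouse gut organoids labelled Tamoxifen and coded T41 and 3 libraries of organoids labelled DMSO and coded T75. They were taken by their names from the organoid table and make up 6 of the 15 samples of the series. An organoid is a small epithelial culture kept in a gel with growth factors. The titles of the Tamoxifen libraries give the genotype as iVilCre ERT2JUPfl/fl, a floxed Jup gene with a tamoxifen-inducible Cre recombinase driven by the villin promoter, which is active in intestinal epithelium. The titles of the DMSO libraries give JUPfl/fl, the floxed gene with no Cre named. DMSO is a solvent in which tamoxifen is often dissolved. A further group of 3 libraries, labelled nativ and also coded T75 with the title genotype JUPfl/fl, entered the fit for its estimate of spread and is quoted as a background. The floxed gene is thus shared by all 3 groups. Between Tamoxifen and DMSO the code, the Cre and the treatment change together, so their parts in any difference below cannot be told apart. The labels do not say what the codes stand for, how many animals or cultures lie behind a group, or the age of the animals, and p-values therefore measure only the spread between these libraries, which may be technical.

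The product of Jup is plakoglobin (gamma-catenin), which links desmosomal and classical cadherins to the cytoskeleton. The identity of gut epithelium rests on a small set of transcription factors, among them the CDX, HNF4 and GATA families, which switch on digestive enzymes, nutrient carriers and brush border proteins. Absorptive cells carry these proteins on the apical membrane, goblet cells secrete mucus, Paneth cells secrete antimicrobial defensins and enteroendocrine cells secrete hormones.

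Library totals ran from 25185053 to 30744563 reads, and 3 reads in a library correspond to 0.0976 to 0.119 CPM, which are reads scaled to a library total of 1000000. Floors and counting intervals quoted below cover counting error only. The 3 Tamoxifen libraries were alike, with Spearman correlations across genes of 0.998 to 0.9983, and the DMSO libraries were less so, at 0.9897 to 0.9945. Among genes whose group mean reached 5 CPM, the ratio of the highest to the lowest library had a median of 1.07 in Tamoxifen and of 1.24 in DMSO. Mitochondrially encoded RNA took 0.116% to 0.136% of the reads in Tamoxifen and 0.0404% to 0.0905% in DMSO, and its part in the differences was not tested. Values are listed in the order of replicates 1, 2 and 3 of each group, in CPM unless stated, and log2 changes are Tamoxifen minus DMSO from edgeR.

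The targeted gene was lower in the Tamoxifen libraries and still present. Jup (chr11:100368856-100397839, minus strand, GRCm38.p6) stood at 69.0, 70.9 and 71.2 CPM in Tamoxifen and at 359.6, 378 and 414 CPM in DMSO (log2 change -2.52, SE 0.11, adjusted p = 1.23e-08). No library of either group overlapped the other, and nativ libraries stood at 386, 275 and 395 CPM. The counts are summed over the whole gene, so reads outside the floxed part are included.

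Most genes differed between the groups. Of 16449 genes with enough reads to test, 10907 (66.3%) were called at an adjusted p under 0.05. Higher levels in Tamoxifen were called for 5571 (33.9%) and lower levels for 5336 (32.4%), and 5808 (35.3%) were called with more than a 2-fold difference. The 3 libraries of one group lay wholly above the 3 of the other for 76.2% of tested genes. With a background of this size a call or a lack of overlap says little about a single gene, and the sections below turn on the size of a difference, the level of a gene and the counts within families. Protein-coding genes made up 13582 of the genes tested, with 4777 higher and 4441 lower. Family counts below are over members with enough reads to test. They are to be read against the 33.9% higher and 32.4% lower of all tested genes, and counts near these shares say little about a family. A gene absent from one group can be tested only through its reads in the other, so a count describes the tested members and not the whole family. In bulk RNA, fewer cells of a type and less RNA per cell cannot be told apart, and this applies to each result below.

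**Figure D1:**
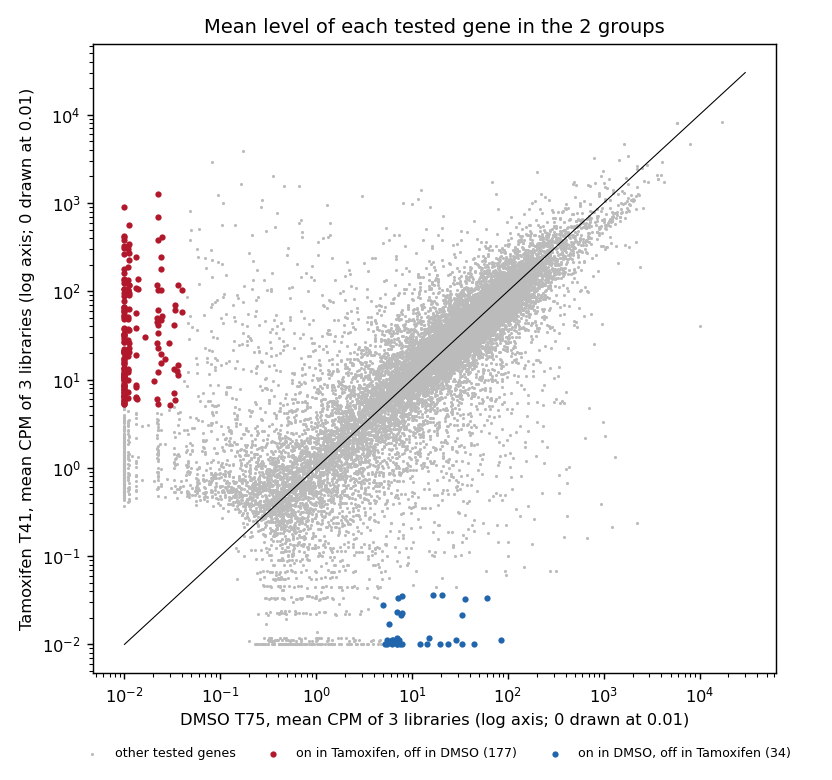
Mean level of each tested gene in the 3 DMSO libraries (x axis) against the 3 Tamoxifen libraries (y axis), in CPM on log axes, with genes present in one group and at 3 reads or fewer in the other drawn in colour. The 177 genes on in Tamoxifen lie at the left and the 34 genes on in DMSO at the bottom.

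The most direct contrast was formed by genes present in one culture and at the counting floor in the other. A gene was counted as on where its mean was at least 5 CPM and as off where the 3 libraries of the other group held at most 3 reads in all. Of 12220 genes with at least 5 CPM in either group, 177 (1.45%) were on in Tamoxifen and off in DMSO, and 34 (0.278%) were on in DMSO and off in Tamoxifen. No read at all was counted in DMSO for 83 of the 177, and none in Tamoxifen for 13 of the 34. The 177 genes took 1.45% to 1.49% of the reads of each Tamoxifen library, while the 34 genes took 0.0512% to 0.0659% of the reads of each DMSO library. In nativ, the other T75 group, 0 of the 177 reached 5 CPM and 109 had at most 3 reads. Of the 34, 31 reached 5 CPM in nativ, and none was at the floor there.

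The 177 genes included 10 transcription factors, 18 transporters and channels, 21 members of surface protein families, 7 secreted factors and 16 enzymes. Some of the 21, such as the lectin Reg4, are secreted. The other 105 belonged to none of the gene families searched. The largest of them by fitted change was Defa24, a Paneth cell defensin, at 881, 902 and 893 CPM against no read in DMSO (at least 25356-fold higher, adjusted p = 4.07e-08). Otc, which makes citrulline in the urea cycle and in gut epithelium, stood at 163, 159 and 163 CPM against no read (at least 4597-fold higher, adjusted p = 2.08e-08). Chgb, a granule protein of hormone-secreting cells, reached 133, 133 and 138 CPM, again without a read in DMSO (at least 3827-fold higher, adjusted p = 4.79e-08). Sis encodes sucrase-isomaltase, the brush border enzyme that splits sucrose, and missed the rule by a few reads, at 2926, 3096 and 2762 CPM with 7 reads over the 3 DMSO libraries (log2 change 14.98, SE 1.04, adjusted p = 3.96e-07). These 4 genes are known from Paneth, absorptive and hormone-secreting cells.

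The 34 genes on in DMSO comprised 6 transcription factors, 2 transporters, 2 surface proteins, 5 secreted factors, 1 enzyme and 18 genes outside the families. Pilra, an immunoglobulin-type receptor, stood at 13.7, 12.6 and 17.2 CPM in DMSO and had no read in Tamoxifen (at least 427-fold lower, adjusted p = 5.68e-08). The proton pump subunit gene Atp6v0d2 was uneven between the DMSO libraries, at 3.62, 16.04 and 16.9 CPM, with no read in Tamoxifen (at least 360.4-fold lower, adjusted p = 4.98e-05). Zfpm2, also named FOG2, a cofactor of GATA proteins, stood at 4.13, 6.11 and 8.10 CPM against no read (at least 181-fold lower, adjusted p = 8.92e-06). Other genes kept a few reads in Tamoxifen and were far higher in DMSO. Gabrp, a GABA receptor subunit of epithelia, stood at 0.334, 0.0976 and 0.215 CPM in Tamoxifen and at 983, 1172 and 1536 CPM in DMSO (log2 change -12.52, SE 0.34, adjusted p = 3.56e-10). Sftpd, the collectin surfactant protein D, stood at 0.0334, 0.0651 and 0.107 CPM and at 289, 311 and 356 CPM (log2 change -12.17, SE 0.23, adjusted p = 8.64e-11), and the copper carrier ceruloplasmin, Cp, at 0.0334, 0.0976 and 0.0716 CPM and at 269.9, 246 and 316 CPM (log2 change -11.97, SE 0.31, adjusted p = 2.89e-10).

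Promoter sequence offers a view of the on and off genes that the counts did not use. Windows of 250 bases before the annotated start, taken from RefSeq on GRCm38.p6, were found for 125 of the 177 genes on in Tamoxifen, for 18 of the 34 on in DMSO and for 11656 of the tested genes. They were searched on both strands for CAAAGTCCA, a full site of the kind bound by HNF4 factors. It occurred in 8 of the 125 windows (6.4%), in 1 of 18 (5.56%, Pilra) and in 64 of 11656 (0.549%). Of 25582 genes of the table with a window, 117 held it (0.457%). The 8 genes were Alpi, Treh, Cyp3a11, Btnl2, H2-T3, Cyp2c40, Cyp2c65 and Cyp2c68, and the last 3 are related copies of a single gene family, so they are not separate observations. The bases around the match are printed below for 4 of the other 5, to show where it lies, 5′ to 3′ on the strand of the gene and with the match in capitals. None of the 4 runs past the base before the start that the RefSeq table gives, which for Btnl2 lies inside the gene as placed by the deposited table. In Treh the match lies on the opposite strand and so reads TGGACTTTG.
Alpi, chr1:87101607-87101670, minus strand: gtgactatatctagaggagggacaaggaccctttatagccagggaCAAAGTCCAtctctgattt
Treh, chr9:44673117-44673215, plus strand: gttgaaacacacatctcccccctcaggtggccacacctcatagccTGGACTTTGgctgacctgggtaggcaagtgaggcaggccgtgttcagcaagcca
Cyp3a11, chr5:145879910-145880008, minus strand: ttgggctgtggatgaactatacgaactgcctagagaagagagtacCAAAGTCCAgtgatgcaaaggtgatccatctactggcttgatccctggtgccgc
Btnl2, chr17:34354736-34354821, plus strand: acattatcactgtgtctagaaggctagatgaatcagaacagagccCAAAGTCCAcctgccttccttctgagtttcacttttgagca

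The match began 19 bases before that start in Alpi, 71 in Treh, 109 in Cyp3a11 and 41 in Btnl2. Alpi encodes the intestinal alkaline phosphatase of the brush border and stood at 424, 445 and 409 CPM in Tamoxifen, with 0.5 read over the DMSO libraries, a fraction as the table gives it (at least 12109-fold higher, adjusted p = 9.32e-08). Treh, the brush border enzyme trehalase, stood at 25.4, 28.5 and 26.2 CPM and had no read in DMSO (at least 759-fold higher, adjusted p = 1.41e-07). For Cyp3a11, a drug and bile acid oxidising enzyme, the levels were 110.2, 111 and 92.7 CPM against 1 read over the 3 DMSO libraries (adjusted p = 2.39e-09). Btnl2, a butyrophilin-like surface protein, stood at 22.1, 20.9 and 19.7 CPM against no read (at least 594-fold higher, adjusted p = 1.86e-08). Another 3 letter strings were searched in the same windows. CCATAAA, of the kind bound by CDX factors, occurred in 7 of 125 (5.6%), in 0 of 18 and in 2.05% of tested genes. The palindrome bound by HNF1 factors, with any base in the middle, occurred in 1 of 125 (0.8%), the anion exchanger gene Slc26a3, against 0.12% of tested genes. The TATA box string TATAAA, which shares the letters ATAAA with CCATAAA, occurred in 37 of 125 (29.6%), in 3 of 18 (16.7%) and in 8.8% of tested genes. A match is a string of letters and not a binding site, and Treh, Cyp3a11, Btnl2, H2-T3, Slc26a3 and the 3 Cyp2c genes were singled out after their values were seen.

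Transcription factors as a class were more often lower than higher. Of 766 tested, 201 were higher in Tamoxifen and 294 lower, with a median log2 change of -0.12 against 0.02 over all tested genes. The share called, 64.6%, was close to the 66.3% of all genes. The 8 largest rises included Isx, Cdx1, Pitx1, Hoxb8 and Hoxb9, all homeobox genes. Isx, the intestine-specific homeobox factor that controls retinoid uptake, stood at 62.7, 61.6 and 61.8 CPM in Tamoxifen and had no read in DMSO (at least 1762-fold higher, adjusted p = 1.96e-09). Cdx1 stood at 101, 99.3 and 109.6 CPM with 1 read over the DMSO libraries (8804-fold higher, 95% counting interval 1579.8 to 347786, adjusted p = 8.4e-10). Its relative Cdx2, a master factor of intestinal identity, did keep a level in DMSO, at 15.6, 15.5 and 17.8 CPM against 326, 326 and 335 CPM in Tamoxifen (log2 change 4.27, SE 0.12, adjusted p = 6.07e-10). The third ParaHox gene tested went the other way: Pdx1, a factor of duodenum and pancreas, stood at 1.91, 1.79 and 1.97 CPM in Tamoxifen and at 23.3, 21.5 and 25.6 CPM in DMSO (log2 change -3.70, SE 0.17, adjusted p = 1.73e-08). The groups did not overlap for any of these 4, as for 76.2% of all tested genes. The naming rule required this of the largest changes.

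The factors shared by liver and gut moved in both directions within their families. Hnf4a, which drives absorptive genes, stood at 1055, 1058 and 1051 CPM in Tamoxifen and at 225, 161 and 184 CPM in DMSO (log2 change 2.41, SE 0.16, adjusted p = 3.37e-07). Its partner Hnf4g, which acts on many of the same sites in the intestine, stood at 177, 174 and 169.5 CPM and at 0.169, 0.159 and 0.393 CPM (log2 change 9.37, SE 0.24, adjusted p = 3.23e-10). Onecut1, known from liver, bile duct and pancreas, had 3 reads over the Tamoxifen libraries and stood at 20.2, 17.7 and 24.4 CPM in DMSO (619-fold lower, 95% counting interval 212 to 3005, adjusted p = 1.98e-08). Over the HNF1, HNF4 and Onecut group 3 of 7 members were higher and 4 lower. Gata4, a factor of the upper small intestine, stood at 118, 119 and 125 CPM in Tamoxifen and at 0.113, 0 and 0.0656 CPM in DMSO (log2 change 10.84, SE 0.53, adjusted p = 2.37e-08). Its relative Gata6 stood at 83.8, 81.8 and 89.0 CPM and at 67.5, 75.1 and 88.3 CPM, and was not called (log2 change 0.07, SE 0.11, adjusted p = 0.561).

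Forkhead, SOX, TALE and RUNX factors were mostly lower in Tamoxifen. Of 21 forkhead factors 5 were higher and 13 lower. Foxa1 stood at 40.3, 40.4 and 42.2 CPM in Tamoxifen and at 3.92, 4.57 and 6.33 CPM in DMSO (log2 change 2.98, SE 0.18, adjusted p = 1.49e-07), whereas Foxa2 stood at 4.75, 4.29 and 4.79 CPM and at 112, 93.5 and 89.9 CPM (log2 change -4.48, SE 0.13, adjusted p = 7.61e-10). Foxa1 and Foxa2 open chromatin in endoderm, and this pair moved in opposite directions. Of 9 SOX factors 2 were higher and 7 lower. Sox17, a factor of early endoderm and of the extrahepatic bile duct, had 2 reads over the Tamoxifen libraries and stood at 38.4, 32.2 and 29.1 CPM in DMSO (1472-fold lower, 95% counting interval 407 to 12159, adjusted p = 1.25e-09). Of 13 TALE homeobox factors 2 were higher and 8 lower. Meis1, a TALE cofactor of Hox proteins, had 1 read in Tamoxifen and stood at 4.97, 4.80 and 6.49 CPM in DMSO (484-fold lower, 95% counting interval 86.5 to 19171, adjusted p = 1.76e-08). Its relative Meis2 stood at 2.64, 1.59 and 1.61 CPM and at 71.7, 82.0 and 87.1 CPM (log2 change -5.43, SE 0.18, adjusted p = 1.7e-09). All 3 RUNX genes were lower. Runx1 stood at 7.25, 6.15 and 7.12 CPM and at 94.97, 88.1 and 89.4 CPM (log2 change -3.80, SE 0.13, adjusted p = 2.01e-09), and Runx2 at 0.669, 0.781 and 0.501 CPM and at 35.4, 31.4 and 32.9 CPM (log2 change -5.73, SE 0.22, adjusted p = 3.43e-09). Foxa2 and Meis2 were chosen after their values were seen.

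The zinc finger factor Sall1, needed in kidney development, and Pax9, a factor of the foregut pouches, had no read in the Tamoxifen libraries. Sall1 stood at 34.001, 31.7 and 35.01 CPM in DMSO (at least 992-fold lower, adjusted p = 3.64e-09) and Pax9 at 8.42, 6.67 and 8.29 CPM (at least 230.3-fold lower, adjusted p = 2.42e-08). Hhex, which specifies liver and bile duct, stood at 3.41, 3.09 and 3.51 CPM in Tamoxifen and at 231, 176 and 196 CPM in DMSO (log2 change -5.98, SE 0.15, adjusted p = 2.36e-10). The kidney cyst gene Glis3 encodes a Krüppel-like zinc finger factor and stood at 0.936, 1.04 and 1.22 CPM and at 79.0, 71.0 and 85.3 CPM (log2 change -6.27, SE 0.25, adjusted p = 4.57e-09). Eya2, a cofactor of homeobox proteins of the sine oculis kind, stood at 0.869, 0.455 and 0.250 CPM and at 59.3, 75.6 and 91.3 CPM (log2 change -7.21, SE 0.29, adjusted p = 5.16e-09). In each of these 5 the lowest DMSO library lay above the highest Tamoxifen library. Groups lay apart for 76.2% of all tested genes, and the naming rule asked for it in the largest changes. Id1 and Id2, which block bHLH factors and respond to BMP signals, were lower as well, Id1 at 55.6, 51.7 and 58.5 CPM in Tamoxifen and at 374, 421 and 367 CPM in DMSO (log2 change -2.88, SE 0.12, adjusted p = 6.26e-09) and Id2 at 94.9, 97.2 and 99.0 CPM and at 758, 705 and 606 CPM (log2 change -2.90, SE 0.12, adjusted p = 6.68e-09).

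Hox genes mark position along the body axis, and 10 of the 39 in the table had enough reads to test. All 10 were higher in Tamoxifen and had at most 3 reads in DMSO, so they were tested through their Tamoxifen reads alone. Their median log2 change was 8.80 as fitted and 6.49 with DMSO set to its floor of 3 reads. Among them were Hoxb9, at 19.96, 18.8 and 17.1 CPM against 1 read over the DMSO libraries (1587-fold higher, 95% counting interval 285 to 62739, adjusted p = 2.84e-08), and Hoxb8, at 5.15, 5.89 and 4.83 CPM against no read (at least 150.3-fold higher, adjusted p = 3.28e-06). Pitx1, a hindlimb factor, stood at 19.2, 17.8 and 20.5 CPM against 1 read (1632-fold higher, 95% counting interval 292 to 64488, adjusted p = 4.47e-08). Neurog3, which starts the enteroendocrine fate, stood at 6.65, 7.51 and 7.62 CPM and had no read in DMSO (at least 206-fold higher, adjusted p = 1.6e-06). Other factors with a higher level were Mlxipl, a sugar-sensing bHLH factor at 257, 236 and 211 CPM against 6.06, 5.68 and 8.82 CPM (log2 change 5.03, SE 0.17, adjusted p = 1.36e-09), and Tbx3, a T-box factor at 79.2, 82.9 and 76.2 CPM against 0.913, 0.635 and 2.56 CPM (log2 change 5.76, SE 0.34, adjusted p = 9.88e-08).

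Nuclear receptors, which sense vitamins, bile acids and foreign compounds, were higher for 16 and lower for 11 of 34. Vdr, the vitamin D receptor, stood at 393, 389.6 and 375 CPM in Tamoxifen and at 31.4, 29.6 and 35.5 CPM in DMSO (log2 change 3.52, SE 0.15, adjusted p = 8.92e-09). Nr1i2, the pregnane X receptor, stood at 56.1, 55.2 and 55.3 CPM and at 0.203, 0.119 and 0.262 CPM (log2 change 8.03, SE 0.20, adjusted p = 2.7e-10), and Nr1h4, the bile acid receptor FXR, at 58.5, 55.9 and 60.4 CPM and at 2.199, 2.54 and 3.28 CPM (log2 change 4.38, SE 0.16, adjusted p = 2.65e-09). Rora, a clock and lipid factor, was instead lower, at 3.18, 2.93 and 3.08 CPM and at 30.5, 38.95 and 42.5 CPM (log2 change -3.68, SE 0.19, adjusted p = 3.28e-08). The last 3 were chosen after their values were seen. Fgf15, the gut hormone that FXR induces in the ileum, stood at 105, 101 and 105 CPM in Tamoxifen and at 0.237, 0.357 and 0.328 CPM in DMSO (log2 change 8.32, SE 0.17, adjusted p = 1.16e-10). Among stress and growth factors, 9 of 46 bZIP genes were higher and 25 lower. Xbp1, a factor of the secretory pathway, stood at 151, 148 and 147 CPM and at 735, 738 and 867 CPM (log2 change -2.46, SE 0.14, adjusted p = 5.6e-08).

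Of 19 KLF and SP factors 4 were higher and 10 lower. Klf5, a factor of proliferating crypt cells, stood at 194, 199.95 and 201 CPM in Tamoxifen and at 314, 264 and 346 CPM in DMSO (log2 change -0.70, SE 0.10, adjusted p = 0.000105). Tead1 and Tead2 are DNA-binding partners of YAP, and Tead2 stood at 8.29, 6.47 and 7.66 CPM and at 42.4, 30.8 and 27.9 CPM (log2 change -2.24, SE 0.16, adjusted p = 5.06e-07). Of 20 ETS factors 5 were higher and 8 lower, and the share called, 65%, was close to the 66.3% of all tested genes. Ehf, an epithelial ETS factor, stood at 129, 121 and 127 CPM and at 584, 435 and 547 CPM (log2 change -2.12, SE 0.12, adjusted p = 9.49e-08), and Etv4 was on the other side at 65.3, 63.5 and 64.2 CPM and 25.96, 21.7 and 23.3 CPM (log2 change 1.38, SE 0.10, adjusted p = 3.71e-07). The groups did not overlap for any of these 4 genes, as for 76.2% of all tested genes.

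Some factors differed little. The 95% interval of the log2 change lay within 0.5 of 0 for 2789 of the tested genes (17%), and the transcription factor with the highest CPM among them, a unit not corrected for gene length, was Nfe2l2, the oxidative stress factor, at 422, 416 and 405 CPM in Tamoxifen and at 432, 405 and 453 CPM in DMSO (log2 change -0.12, SE 0.10, adjusted p = 0.317). Srebf2, which controls cholesterol synthesis, stood at 386, 378 and 394 CPM and at 325, 309.8 and 328 CPM (log2 change 0.20, SE 0.09, adjusted p = 0.0793). Zbtb7a stood at 222, 208 and 221 CPM and at 192, 174 and 201 CPM (log2 change 0.13, SE 0.13, adjusted p = 0.390).

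**Figure D2:**
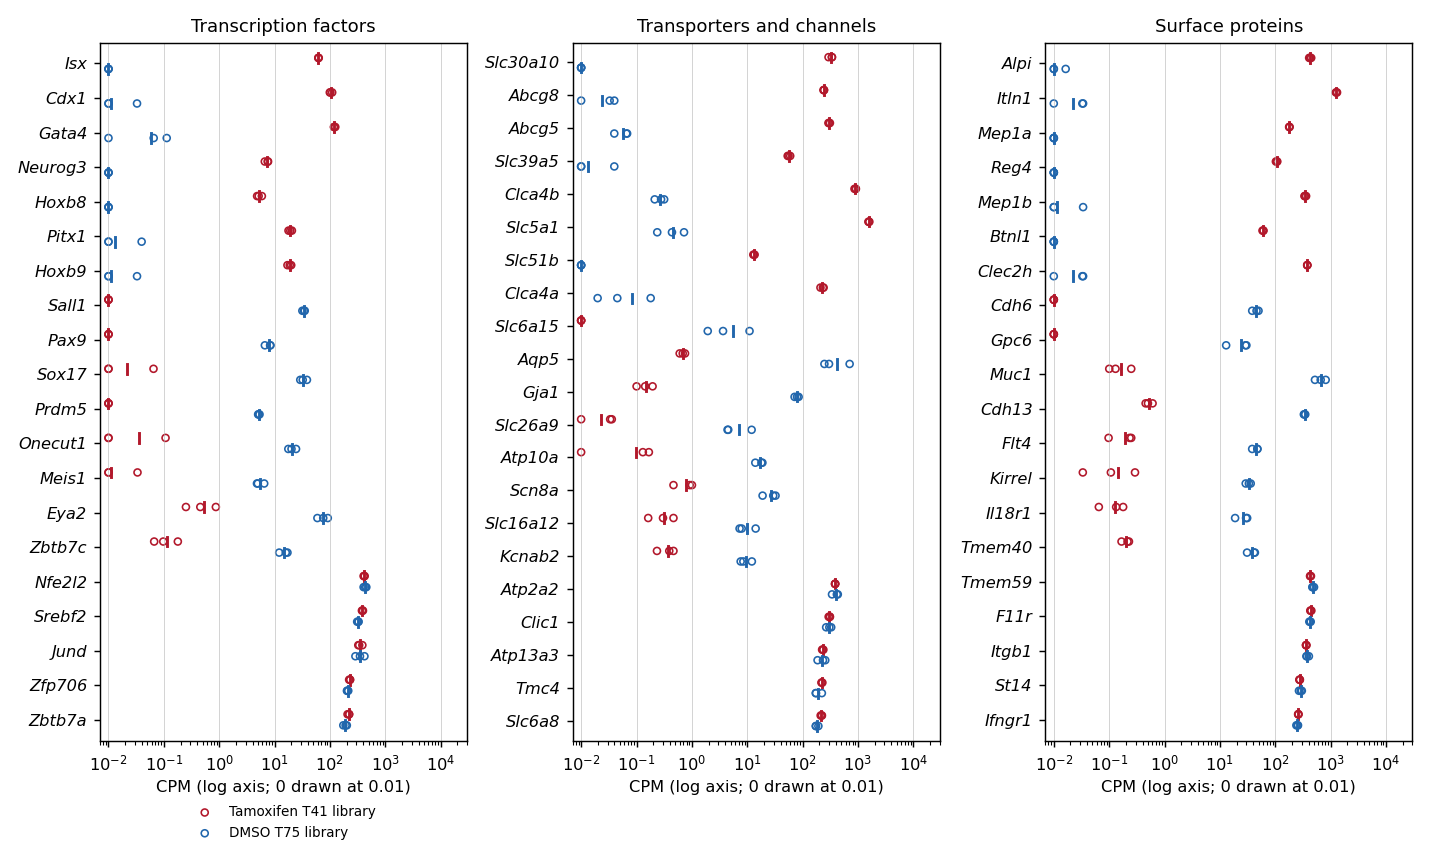
Level of each named transcription factor, transporter and surface gene in each of the 6 libraries, in CPM on a log axis with values at 0 drawn at the left edge, from the 8 largest rises, the 8 largest falls and the 5 little-changed genes of highest CPM of each class, with 1 of the rises left out for transcription factors and 1 for surface proteins. Bars mark the group means. Rises and falls were drawn only from genes whose groups do not overlap. The 3 points of a group lie close together for most genes and far from those of the other group, while the DMSO points of Slc6a15, Aqp5 and Gpc6 are spread out.

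Transporters and channels were more often higher than lower. Of 443 tested, 238 were higher in Tamoxifen and 111 lower, with a median log2 change of 0.52, and 78.8% were called. Slc30a10, a manganese exporter of the apical membrane, stood at 339.6, 337 and 294 CPM and had no read in DMSO (at least 9187-fold higher, adjusted p = 5.72e-09). Slc39a5, a zinc importer of the basolateral membrane, stood at 55.7, 53.7 and 59.6 CPM against 1 read (4794-fold higher, 95% counting interval 860.1 to 189397, adjusted p = 1.09e-09). Slc39a14, which imports zinc, iron and manganese, was present in both groups, at 286, 282 and 271 CPM and at 33.4, 27.8 and 32.8 CPM (log2 change 3.09, SE 0.09, adjusted p = 4.06e-10). In the whole group of 21 zinc and manganese carriers 10 were higher and 5 lower, Slc39a4 among the latter at 267, 260.2 and 277 CPM and 413, 324 and 375 CPM (log2 change -0.53, SE 0.11, adjusted p = 0.00118). Slc39a4 is the dietary zinc importer.

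Most sugar and phosphate carriers were higher. The glucose carriers SLC2 and SLC5 were higher for 11 and lower for 3 of 16, with a median log2 change of 5.06 as fitted and 4.62 with off genes at their floor. Slc5a1, the sodium-coupled glucose importer SGLT1, stood at 1556, 1603 and 1549 CPM in Tamoxifen and at 0.237, 0.437 and 0.721 CPM in DMSO (log2 change 11.63, SE 0.54, adjusted p = 1.58e-08). Slc2a2, the basolateral glucose exit route GLUT2, stood at 112, 125 and 107 CPM and at 0.271, 0 and 0.262 CPM (log2 change 9.16, SE 0.32, adjusted p = 1.81e-09). Slc2a1, the widely expressed glucose carrier GLUT1, was slightly lower, at 216, 228 and 221 CPM and at 228, 306 and 312 CPM (log2 change -0.42, SE 0.13, adjusted p = 0.0142), a call lost without Tamoxifen replicate 1 (adjusted p = 0.0506) or DMSO replicate 2 (adjusted p = 0.0621). Slc15a1, the peptide importer PEPT1, stood at 55.5, 56.5 and 46.9 CPM and at 0.101, 0.199 and 0.393 CPM (log2 change 7.73, SE 0.30, adjusted p = 3.72e-09). Of 10 carriers of phosphate, sulphate and related anions, 8 were higher and none was called lower. Slc17a4 stood at 138, 139 and 121 CPM and at 1.15, 0.516 and 1.18 CPM (log2 change 7.03, SE 0.22, adjusted p = 8.83e-10). The sulphate carrier gene Slc13a1, chosen after its values were seen, stood at 71.1, 70.4 and 65.4 CPM against 3 reads over the DMSO libraries (adjusted p = 3.23e-10).

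Amino acid carriers moved in both directions, with 17 of 35 higher and 10 lower. Slc3a1 encodes rBAT, which brings cystine and dibasic amino acids through the apical membrane, and stood at 269.6, 279 and 266 CPM in Tamoxifen and at 0.0338, 0.199 and 0.361 CPM in DMSO (log2 change 10.32, SE 0.35, adjusted p = 1.54e-09). Its light chain Slc7a9, named after its values were seen, stood at 56.5, 60.3 and 60.0 CPM against 3 reads in DMSO (adjusted p = 7.05e-09). The neutral amino acid importer gene Slc6a19, likewise, stood at 81.7, 75.3 and 71.6 CPM and at 0.609, 1.15 and 2.79 CPM (log2 change 5.57, SE 0.44, adjusted p = 1.1e-06). Slc7a11, the cystine-glutamate exchanger that feeds glutathione synthesis, was lower, at 64.1, 70.3 and 57.1 CPM and at 858, 336 and 448 CPM (log2 change -3.16, SE 0.34, adjusted p = 1.46e-05). So was its heavy chain Slc3a2, at 141, 141 and 144 CPM and at 497, 254 and 321 CPM (log2 change -1.39, SE 0.19, adjusted p = 8.44e-05). DMSO replicate 1 held the highest value of both. Slc6a15, a branched-chain amino acid carrier, had no read in Tamoxifen and ran from 1.93 to 10.995 CPM in DMSO, again highest in replicate 1 (at least 163-fold lower, adjusted p = 0.000162).

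Several carriers of sterols and bile acids were higher. Abcg5 and Abcg8 form the pump that returns plant sterols and cholesterol to the gut lumen and lie head to head on the same chromosome. Abcg5 stood at 311, 301 and 292 CPM with 5 reads over the DMSO libraries (log2 change 12.16, SE 0.38, adjusted p = 9.17e-10), and Abcg8 at 238, 244 and 242 CPM with 2 reads (10288-fold higher, 95% counting interval 2848 to 84955, adjusted p = 1.92e-09). Abcg1, a sterol exporter of the same subfamily named after its values were seen, was lower, at 0.468, 1.14 and 0.680 CPM and at 11.9, 8.66 and 8.29 CPM (log2 change -3.71, SE 0.28, adjusted p = 7.27e-07). Slc51b, the beta chain of the basolateral bile acid exporter, stood at 12.9, 13.3 and 13.6 CPM against no read (at least 376-fold higher, adjusted p = 4.25e-07). Its alpha chain Slc51a, named after its values were seen, stood at 50.8, 48.7 and 50.5 CPM against 2 reads (adjusted p = 1.96e-09). Slc10a2, the apical bile acid importer of ileum and bile duct, was present in both groups, at 138, 136 and 133.9 CPM and at 14.01, 15.6 and 15.4 CPM (log2 change 3.11, SE 0.15, adjusted p = 1.98e-08).

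Of 33 ABC transporters 21 were higher and 9 lower. The drug pump gene Abcb1a stood at 607, 595 and 577 CPM in Tamoxifen and at 1.15, 1.45 and 1.61 CPM in DMSO (log2 change 8.66, SE 0.17, adjusted p = 1.1e-10). Abcc2, an apical exporter of conjugates, stood at 465, 501 and 428 CPM and at 0.846, 0.119 and 1.18 CPM (log2 change 9.22, SE 0.43, adjusted p = 1.61e-08). Its relatives Abcc3 and Abcc4 were lower. Abcc3 stood at 211, 223 and 204 CPM and at 652, 539 and 674 CPM (log2 change -1.61, SE 0.14, adjusted p = 2.33e-06), and Abcc4 at 40.7, 43.3 and 42.1 CPM and at 518, 269 and 343 CPM (log2 change -3.22, SE 0.28, adjusted p = 2.34e-06), so that both kept a sizeable level in each group. Lipid carriers included Slc27a2, a fatty acid carrier and acyl-CoA synthetase at 51.1, 52.7 and 51.9 CPM against 2 reads in DMSO (2211-fold higher, 95% counting interval 612 to 18266, adjusted p = 2.83e-09).

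Salt and water transport showed exchanges within single families. Slc26a6, an apical chloride-bicarbonate exchanger, stood at 258, 259 and 254 CPM in Tamoxifen and at 1.66, 0.675 and 0.819 CPM in DMSO (log2 change 7.85, SE 0.24, adjusted p = 7.66e-10). Slc26a9, its relative of stomach and airway, had 2 reads in Tamoxifen and stood at 4.53, 4.41 and 11.997 CPM in DMSO (318-fold lower, 95% counting interval 87.5 to 2628, adjusted p = 2.14e-06). Cftr, the cyclic AMP-gated chloride channel, stood at 164, 164 and 152 CPM and at 0.372, 0.199 and 0.459 CPM (log2 change 8.75, SE 0.22, adjusted p = 2.87e-10), whereas Ano1, a calcium-gated chloride channel, stood at 21.4, 23.03 and 19.8 CPM and at 227, 186 and 228 CPM (log2 change -3.38, SE 0.16, adjusted p = 1.88e-08). Slc9a3, the sodium-proton exchanger NHE3 of the brush border, stood at 69.0, 83.7 and 75.2 CPM and at 0.101, 0 and 0.164 CPM (log2 change 9.54, SE 0.29, adjusted p = 8.54e-10). Among aquaporins, Aqp4 stood at 11.1, 11.1 and 11.6 CPM against 3 reads in DMSO (319.7-fold higher, 95% counting interval 109 to 1553, adjusted p = 8.59e-08), and Aqp5, the water channel of glands, at 0.602, 0.683 and 0.751 CPM and at 706, 299.7 and 247 CPM (log2 change -9.32, SE 0.47, adjusted p = 3.07e-08). The DMSO values of Aqp5 spread over more than a 2-fold range, with replicate 1 highest, and still lay far above the Tamoxifen values. Of 8 gap junction genes 4 were lower and 1 higher. Gja1, connexin 43, stood at 0.100, 0.195 and 0.143 CPM and at 84.6, 71.6 and 79.2 CPM (log2 change -9.09, SE 0.23, adjusted p = 2.7e-10).

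The sodium pump drives most of the carriers named above. Atp1b1, its beta chain gene, was abundant in both groups and higher in Tamoxifen, at 1708, 1733 and 1733 CPM and at 625, 395 and 445 CPM (log2 change 1.76, SE 0.16, adjusted p = 3.27e-06). Fxyd3, a small regulator of the pump, was lower, at 16.1, 17.2 and 17.6 CPM and at 99.97, 127 and 136 CPM (log2 change -2.90, SE 0.21, adjusted p = 5.95e-07). Of 40 mitochondrial SLC25 carriers 21 were higher and 8 lower. The calcium pump gene Atp2a2 was among the little-changed transporters, at 389, 386 and 384 CPM and at 432, 339 and 415 CPM (log2 change -0.10, SE 0.13, adjusted p = 0.536), together with the creatine carrier gene Slc6a8, at 220.1, 223 and 212 CPM and at 173, 174 and 193 CPM (log2 change 0.21, SE 0.10, adjusted p = 0.0960). The second of these had no overlap between groups and still missed the threshold, though not with only the 6 compared libraries (adjusted p = 0.0372).

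Surface proteins as a class were balanced, with 266 of 748 higher in Tamoxifen and 283 lower, and a median log2 change of -0.10. The class was set by whole gene families, so it takes in some secreted members, among them lectins, mucins and semaphorins. The share called was 73.4%. The 8 largest rises included Alpi, Btnl1, Mep1a, Mep1b and 3 lectins. Mep1a and Mep1b encode the subunits of meprin, a secreted and membrane-bound metalloprotease. Mep1a stood at 179.9, 181 and 178 CPM and had no read in DMSO (at least 5104-fold higher, adjusted p = 8.7e-08), and Mep1b at 360.2, 341 and 337 CPM against 1 read (29519-fold higher, 95% counting interval 5298 to 1165990.5, adjusted p = 1.18e-10). Anpep, aminopeptidase N, stood at 768, 792 and 764 CPM and at 0.237, 0.357 and 0.590 CPM (log2 change 10.85, SE 0.40, adjusted p = 2.62e-09). Of 46 membrane peptidases and ectoenzymes 27 were higher and 12 lower. Tmprss2, a serine protease, was among the lower ones, at 269, 266 and 261 CPM and at 520.4, 443 and 454 CPM (log2 change -0.90, SE 0.09, adjusted p = 9.89e-06).

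Lectins were higher for 16 and lower for 2 of 22. Itln1, intelectin, which binds microbial sugars, stood at 1272, 1242 and 1304 CPM against 2 reads in DMSO (54211-fold higher, 95% counting interval 15007 to 447642, adjusted p = 6.37e-08). Reg4, a secreted lectin of goblet and endocrine cells, stood at 109, 103 and 107 CPM and had no read in DMSO (at least 3009.8-fold higher, adjusted p = 4.22e-09). Clec2h, a C-type lectin, stood at 379.9, 377 and 377 CPM against 2 reads (16114-fold higher, 95% counting interval 4461 to 133067, adjusted p = 2.26e-09). Lgals4, a galectin of the gut, was present in both groups, at 2262, 2240.1 and 2288 CPM and at 171, 215 and 223 CPM (log2 change 3.41, SE 0.31, adjusted p = 3.63e-06), while Lgals3 was lower, at 233, 233 and 236 CPM and at 420.0, 508 and 461 CPM (log2 change -1.06, SE 0.15, adjusted p = 0.000129). Butyrophilin-like proteins shape the T cells that sit between epithelial cells. Of the 8 that the table lists, 6 were tested, and 5 were higher, 4 of them at the floor in DMSO. Btnl1 stood at 58.8, 60.4 and 61.2 CPM against no read (at least 1708-fold higher, adjusted p = 1.64e-08), Btnl4 at 60.3, 56.1 and 57.3 CPM against no read (at least 1645-fold higher, adjusted p = 1.01e-08) and Btnl6 at 62.1, 63.8 and 62.5 CPM against 1 read (5356-fold higher, 95% counting interval 961 to 211590.2, adjusted p = 3.9e-10). Btnl4 was chosen after its values were seen.

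Some adhesion molecules moved in opposite directions within their families. Of 48 tested cadherins and protocadherins 10 were higher, 13 lower and 25 not called. The share called, 47.9%, was below the 66.3% of all tested genes. Cdh17, the cadherin of intestinal epithelium, stood at 1716, 1728 and 1696 CPM in Tamoxifen and at 85.0, 50.7 and 71.5 CPM in DMSO (log2 change 4.57, SE 0.21, adjusted p = 1.46e-08). Cdh6, a cadherin of kidney and bile duct, had no read in Tamoxifen and stood at 38.3, 45.9 and 49.8 CPM in DMSO (at least 1319-fold lower, adjusted p = 1.14e-07). Cdh13, a cadherin anchored by a lipid, stood at 0.501, 0.455 and 0.608 CPM and at 328, 348 and 338 CPM (log2 change -9.40, SE 0.21, adjusted p = 1.32e-10). Cdh1, E-cadherin, to which plakoglobin binds, differed little by comparison, at 1251, 1318 and 1274 CPM and at 910.0, 777 and 991 CPM (log2 change 0.46, SE 0.14, adjusted p = 0.0158), and the call was lost without Tamoxifen replicate 2 (adjusted p = 0.0571) or DMSO replicate 2 (adjusted p = 0.0601). Claudins seal tight junctions. Cldn15, which forms a sodium pore, stood at 509, 518 and 511 CPM against 5 reads over the DMSO libraries (log2 change 12.93, SE 0.32, adjusted p = 2.54e-10), while Cldn4 was lower, at 266, 283 and 282 CPM and at 603, 726 and 641 CPM (log2 change -1.31, SE 0.12, adjusted p = 3.46e-06).

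Immunoglobulin-type adhesion proteins also moved in both directions, with 20 of 49 higher and 17 lower, and 75.5% were called. Gpa33, the intestinal A33 antigen, stood at 429, 419 and 437 CPM in Tamoxifen and at 5.41, 7.23 and 9.57 CPM in DMSO (log2 change 5.79, SE 0.19, adjusted p = 1.35e-09), and Ceacam1 at 834, 867 and 838 CPM and at 46.1, 76.2 and 117 CPM (log2 change 3.34, SE 0.28, adjusted p = 1.56e-06). Bcam, a laminin receptor, was lower, at 24.7, 24.4 and 26.2 CPM and at 995, 695 and 703 CPM (log2 change -5.06, SE 0.18, adjusted p = 2.15e-09). Kirrel, a nephrin relative, also fell, with 0.0334, 0.293 and 0.107 CPM and 35.997, 29.2 and 33.3 CPM (log2 change -7.83, SE 0.40, adjusted p = 3.49e-08). Among mucins Muc13, a membrane mucin of the gut, stood at 1550.2, 1567 and 1541 CPM and at 0.372, 0.794 and 0.819 CPM (log2 change 11.13, SE 0.44, adjusted p = 4.57e-09), and Muc1, a membrane mucin of ducts and glands, at 0.100, 0.130 and 0.250 CPM and at 521, 661 and 813 CPM (log2 change -12.06, SE 0.30, adjusted p = 2.43e-10). Each was near the counting floor in the group where the other was high.

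Signalling receptors followed. Flt4, the receptor VEGFR3 known from lymphatic vessels, stood at 0.234, 0.0976 and 0.250 CPM in Tamoxifen and at 47.7, 38.2 and 47.4 CPM in DMSO (log2 change -7.89, SE 0.33, adjusted p = 7.12e-09). Met, the hepatocyte growth factor receptor, stood at 33.6, 39.5 and 37.1 CPM and at 113, 110.5 and 126 CPM (log2 change -1.73, SE 0.11, adjusted p = 1.81e-07), whereas Ror2, a WNT5A receptor, was higher, at 25.04, 25.3 and 24.3 CPM and at 0.135, 0.0794 and 0.361 CPM (log2 change 6.88, SE 0.34, adjusted p = 2.44e-08). Interleukin and interferon receptors were lower for 18 of 34 and higher for 7. Il18r1, part of the interleukin 18 receptor, stood at 0.134, 0.0651 and 0.179 CPM and at 18.8, 31.1 and 29.7 CPM (log2 change -7.76, SE 0.34, adjusted p = 9.52e-09), and Il4ra at 40.05, 41.7 and 41.3 CPM and at 259, 244 and 269 CPM (log2 change -2.72, SE 0.14, adjusted p = 4.53e-08). Il18, the ligand of Il18r1, moved the other way, with 21.6, 23.03 and 21.4 CPM and 0.981, 0.993 and 1.57 CPM (log2 change 4.14, SE 0.29, adjusted p = 3.73e-07). The heparan sulphate carrier Gpc6 had no read in Tamoxifen and stood at 12.96, 28.9 and 30.1 CPM in DMSO (at least 708-fold lower, adjusted p = 1.2e-06), lowest in replicate 1. Vipr1, the receptor for vasoactive intestinal peptide, stood at 181, 168 and 174 CPM and at 2.23, 1.75 and 2.69 CPM (log2 change 6.22, SE 0.19, adjusted p = 7.94e-10).

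Guidance, Notch and integrin receptors moved in both directions, as did tested genes as a whole (33.9% higher and 32.4% lower). Of 17 integrins 5 were higher and 6 lower, near those shares. Of 33 semaphorins, plexins and related receptors 13 were higher and 18 lower. Sema3f, a secreted guidance cue, stood at 6.12, 5.50 and 5.29 CPM in Tamoxifen and at 208, 189.8 and 199.9 CPM in DMSO (log2 change -5.21, SE 0.13, adjusted p = 2.36e-10), and Sema4g was higher, at 315, 291 and 274 CPM and at 129, 64.1 and 81.3 CPM (log2 change 1.62, SE 0.20, adjusted p = 3.32e-05). Dll4, a Notch ligand of crypt cells, stood at 6.69, 6.15 and 6.87 CPM and at 0.169, 0.516 and 0.393 CPM (log2 change 4.13, SE 0.34, adjusted p = 1.41e-06). Ephb2, which sorts crypt cells by position, stood at 211, 209.8 and 220.2 CPM and at 90.9, 91.7 and 122 CPM (log2 change 1.01, SE 0.12, adjusted p = 2.76e-05), whereas Epha4 was lower, at 10.5, 11.9 and 9.77 CPM and at 120.0, 72.9 and 103 CPM (log2 change -3.27, SE 0.21, adjusted p = 1.97e-07). The laminin-binding integrin chain Itga3 stood at 157, 163 and 156 CPM and at 528, 398 and 436 CPM (log2 change -1.58, SE 0.16, adjusted p = 6.21e-06), and Itga6, another one, was instead higher, at 355, 352 and 339 CPM and at 161, 199 and 259 CPM (log2 change 0.69, SE 0.16, adjusted p = 0.00305). Lgr4, a receptor for R-spondins, stood at 224, 220.3 and 221 CPM and at 57.5, 54.8 and 62.97 CPM (log2 change 1.86, SE 0.08, adjusted p = 7.77e-09). Tm4sf5, a tetraspanin-like protein, showed the widest gap of those named here, at 406, 408 and 409 CPM and at 0.440, 0.794 and 0.918 CPM (log2 change 9.08, SE 0.34, adjusted p = 2.96e-09).

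Some antigens used to sort epithelial cells were higher in DMSO. Ly6a, also called Sca-1, stood at 324, 321 and 319 CPM in Tamoxifen and at 1463, 1235 and 1331 CPM in DMSO (log2 change -2.13, SE 0.11, adjusted p = 3.91e-08), and Cd44, a hyaluronan receptor, at 175, 173 and 167 CPM and at 699, 807 and 1140.4 CPM (log2 change -2.43, SE 0.18, adjusted p = 7.78e-07). Of 24 Ly6 family genes tested 6 were higher and 13 lower. Among the higher ones was Lypd8, which keeps bacteria off the colonic surface, at 399, 423 and 413 CPM and at 1.35, 1.27 and 1.38 CPM (log2 change 8.20, SE 0.38, adjusted p = 1.52e-08). Little-changed surface genes included Itgb1, the common beta integrin, at 358, 366 and 359.7 CPM and at 371, 365 and 404 CPM (log2 change -0.14, SE 0.12, adjusted p = 0.303), the serine protease gene St14, at 272, 276 and 278 CPM and at 268, 287 and 302 CPM (log2 change -0.12, SE 0.09, adjusted p = 0.259), and Tmem59, at 430.4, 424 and 441 CPM and at 501, 469.9 and 469 CPM (log2 change -0.22, SE 0.11, adjusted p = 0.103).

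**Figure D3:**
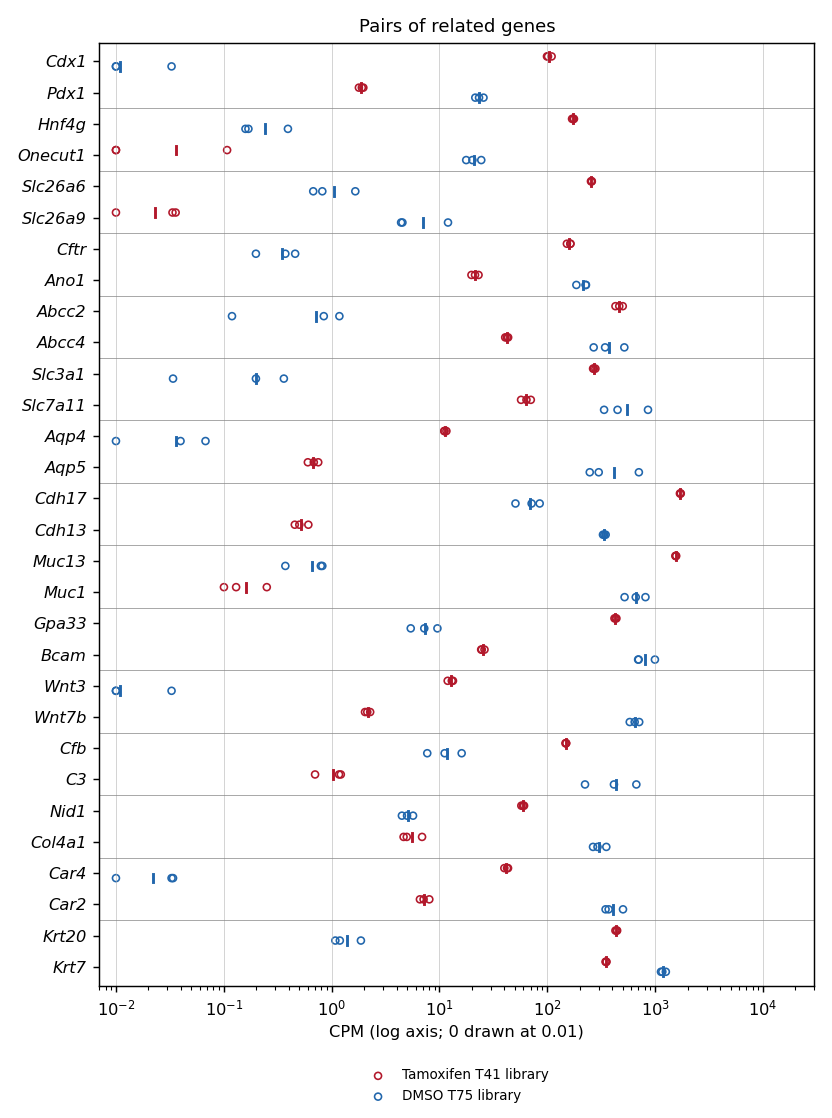
Level of 15 pairs of related genes in the 6 libraries, in CPM on a log axis, with the group means as bars. Each pair comes from a single family searched, except Nid1 with Col4a1, which joins the laminin and basement membrane family to the collagens. In each pair the upper gene was higher in Tamoxifen and the lower gene was higher in DMSO.

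Exchanges of this kind were counted over the 105 families searched. A family was counted in both directions where it held at least 1 called member with a log2 change above 3 and at least 1 below -3, each with a mean of 5 CPM or more in its higher group. This was so for 47 families. Another 25 had such members on the higher side alone, 19 on the lower side alone, and 14 had none. Over all 16449 tested genes, 1128 were called above 3 and 866 below -3, before the condition on level. Families held from 1 to 437 tested members, and a large one may hold both kinds through these shares alone. The count was not compared with that of other gene sets of the same sizes. The pairs plotted by library were chosen after their values were seen.

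Secreted factors were mostly lower in Tamoxifen, 138 of 248 against 66 higher, with a median log2 change of -1.04, and 82.3% were called. None of 17 tested collagens was called higher and 11 were lower. Col4a1, a chain of basement membrane collagen, stood at 4.65, 6.90 and 4.97 CPM in Tamoxifen and at 265, 292 and 352 CPM in DMSO (log2 change -5.85, SE 0.24, adjusted p = 6.6e-09). Laminins and related proteins were lower for 11 and higher for 2 of 15, and Lama5 stood at 111, 104 and 90.3 CPM and at 524, 595 and 876 CPM (log2 change -2.77, SE 0.23, adjusted p = 1.85e-06). Nid1, the linker that joins laminin to collagen, was an exception at 60.9, 59.3 and 57.4 CPM and at 4.48, 5.003 and 5.69 CPM (log2 change 3.48, SE 0.17, adjusted p = 2.29e-08). Of 33 matrix proteases and their inhibitors 22 were lower and 6 higher. Timp3, a protease inhibitor bound to the matrix, stood at 2.61, 2.05 and 2.22 CPM and at 1988, 684 and 431 CPM (log2 change -8.87, SE 0.64, adjusted p = 5.55e-07), highest in DMSO replicate 1. Mmp7, matrilysin, stood at 189.5, 190.2 and 191 CPM and at 1685, 2818 and 2707 CPM (log2 change -3.73, SE 0.22, adjusted p = 1.07e-07).

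Growth factors of the WNT and TGF-beta groups were exchanged or lower. Wnt3, the ligand that Paneth cells supply to stem cells, stood at 13.3, 13.01 and 11.9 CPM against 1 read over the DMSO libraries (1089-fold higher, 95% counting interval 195 to 43055, adjusted p = 5.68e-08). Wnt7b stood at 2.14, 2.28 and 2.04 CPM in Tamoxifen and at 711, 645 and 581 CPM in DMSO (log2 change -8.29, SE 0.22, adjusted p = 3.26e-10). Notum, which removes the lipid from WNT proteins, stood at 7.35, 7.38 and 7.76 CPM and at 71.7, 55.4 and 68.1 CPM (log2 change -3.18, SE 0.14, adjusted p = 1.04e-08). Of 22 ligands of the BMP, GDF, TGF-beta and activin group 4 were higher and 15 lower. Tgfb3, a TGF-beta ligand, stood at 0.0334, 0.195 and 0 CPM and at 166, 141 and 133 CPM (log2 change -10.84, SE 0.48, adjusted p = 1.16e-08). The insulin-like growth factor binding proteins Igfbp3 and Igfbp7 were lower too, Igfbp3 at 5.89, 5.50 and 4.94 CPM and at 111, 148 and 113 CPM (log2 change -4.58, SE 0.26, adjusted p = 7.34e-08) and Igfbp7 at 0.234, 0.325 and 0.107 CPM and at 95.7, 113 and 79.2 CPM (log2 change -8.78, SE 0.26, adjusted p = 7.66e-10). EGF ligands were split, with Areg higher at 233, 233.9 and 238 CPM and 68.4, 47.4 and 57.8 CPM (log2 change 1.96, SE 0.12, adjusted p = 1.84e-07) and Hbegf lower at 45.1, 43.7 and 41.5 CPM and 108, 143 and 122.9 CPM (log2 change -1.59, SE 0.15, adjusted p = 5.45e-06).

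Immune mediators divided along the same lines. Ccl25, the chemokine that draws T cells to the small intestine, stood at 235, 233.5 and 243 CPM in Tamoxifen and at 3.77, 3.89 and 3.75 CPM in DMSO (log2 change 5.89, SE 0.16, adjusted p = 3.49e-10). Of 43 interleukins and chemokines 12 were higher and 25 lower. In the complement system Cfb was higher, at 149, 149.5 and 147 CPM and at 11.2, 7.70 and 16.1 CPM (log2 change 3.61, SE 0.26, adjusted p = 5.76e-07). C3, which binds the product of Cfb, was lower, at 0.702, 1.17 and 1.22 CPM and at 224, 415 and 669 CPM (log2 change -8.79, SE 0.48, adjusted p = 5.25e-08). Cxcl16, a chemokine also anchored to membranes, was lower, at 66.4, 68.7 and 65.1 CPM and at 180.2, 174 and 174 CPM (log2 change -1.47, SE 0.10, adjusted p = 4.29e-07). Lcn2, an iron-trapping defence protein, stood at 0.368, 0.358 and 0.429 CPM and at 481, 1038 and 1276 CPM (log2 change -11.30, SE 0.47, adjusted p = 6.6e-09). For C3 and Lcn2 alike, DMSO replicate 3 was the highest and replicate 1 the lowest of their group. Wfdc2, a protease inhibitor of ducts and airways, was even across the DMSO libraries, with 1.04, 1.59 and 1.36 CPM and 1371, 1323 and 1221 CPM (log2 change -10.001, SE 0.24, adjusted p = 2.36e-10). None of 13 tested interferon-induced GTPases was called higher and 12 were lower.

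Apolipoproteins coat the lipid particles that enterocytes and hepatocytes release, and 9 of 15 were higher and 4 lower. Apoa1 stood at 1588, 1689 and 1636 CPM in Tamoxifen and at 0.135, 0.199 and 0.164 CPM in DMSO (log2 change 13.18, SE 0.76, adjusted p = 8.58e-08), and Apob at 536, 631 and 432 CPM and at 0.372, 0.357 and 0.393 CPM (log2 change 10.39, SE 0.26, adjusted p = 2.54e-10). Among serpins, which block proteases, Serpinb1a was higher, at 437, 447 and 430.2 CPM and at 12.9, 19.1 and 24.5 CPM (log2 change 4.47, SE 0.23, adjusted p = 3.32e-08).

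Enzymes of metabolism were the other class mainly higher, 203 of 350 against 85 lower, with a median log2 change of 0.76, and 82.3% were called. Cytochrome P450 enzymes oxidise drugs, steroids and fatty acids, and 38 of 50 tested were higher and 6 lower, with a median log2 change of 4.39 as fitted and 4.20 with off genes at their floor. Cyp2c55 stood at 410.3, 427 and 397 CPM and had no read in DMSO (at least 11698-fold higher, adjusted p = 5.73e-09), and Cyp4f14 stood at 813, 809 and 821 CPM with 4 reads in DMSO (log2 change 13.89, SE 0.39, adjusted p = 5.11e-10). Cyp1b1 was the reverse, at 1 read in Tamoxifen and 68.2, 78.0 and 110.2 CPM in DMSO (7631-fold lower, 95% counting interval 1369 to 301456, adjusted p = 2.16e-09). Carboxylesterases hydrolyse esters of drugs and lipids. All 11 tested were higher, of 19 in the table, and Ces2e stood at 979.8, 992 and 989 CPM and at 7.92, 5.68 and 10.5 CPM (log2 change 6.88, SE 0.21, adjusted p = 7.55e-10). P450, carboxylesterase and glutathione transferase genes include near-identical copies among which reads were divided, so the split between copies is uncertain.

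Aldehyde, alcohol and aldo-keto enzymes were higher for 40 and lower for 14 of 63. Adh6a stood at 302, 328 and 308 CPM against no read in DMSO (at least 8890.3-fold higher, adjusted p = 1.34e-07), and Aldh1b1 at 427, 417 and 448 CPM and at 6.597, 5.40 and 7.44 CPM (log2 change 5.99, SE 0.13, adjusted p = 1.18e-10). Aldh3a1, known from cornea and from responses to dioxin-like compounds, stood at 0.100, 0.0651 and 0.250 CPM in Tamoxifen and at 264, 136 and 135 CPM in DMSO (log2 change -10.37, SE 0.48, adjusted p = 1.63e-08). Acyl-CoA enzymes handle fatty acids, and 30 of 41 were higher and 6 lower. Acsl5, which activates dietary fatty acids, stood at 989, 1003 and 974 CPM and at 201, 157 and 179 CPM (log2 change 2.40, SE 0.11, adjusted p = 1.02e-08), whereas Acsl4, which prefers arachidonic acid, stood at 16.2, 18.2 and 15.96 CPM and at 198, 169 and 223 CPM (log2 change -3.61, SE 0.14, adjusted p = 4.2e-09). Among carbonic anhydrases, Car4 stood at 43.2, 39.9 and 42.3 CPM against 2 reads (1782-fold higher, 95% counting interval 493 to 14719, adjusted p = 2.07e-10), and Car2 at 6.59, 7.12 and 8.05 CPM and at 503, 347 and 370.4 CPM (log2 change -5.87, SE 0.17, adjusted p = 5.26e-10). The general aldolase gene Aldoa was high in both groups and not called, at 2866, 2936 and 3010.1 CPM and at 2899.7, 5054 and 4251 CPM (log2 change -0.55, SE 0.23, adjusted p = 0.0605). It was called lower with DESeq2 (adjusted p = 0.0204), with no low-count filter (0.0263), with only the 6 compared libraries (0.0347), with a replicate block (0.0383) and without DMSO replicate 1 (log2 change -0.75, adjusted p = 0.00710). B4galnt2, which makes a gut blood-group sugar, stood at 1155, 1216 and 1193 CPM and at 1.45, 3.61 and 4.03 CPM (log2 change 8.55, SE 0.40, adjusted p = 1.77e-08).

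Genes of general cell machinery differed by less but in large blocks. Of 78 cytosolic ribosomal protein genes none was called higher and 74 were lower, with a median log2 change of -0.94. Their summed level was 49731 to 52562 CPM in Tamoxifen and 80777 to 107494 CPM in DMSO. Eef1a1, the elongation factor that brings tRNA to the ribosome, stood at 8097, 8109.7 and 8355 CPM and at 17833, 18667 and 14509 CPM (log2 change -1.13, SE 0.23, adjusted p = 0.00139). Nuclear genes of the respiratory chain moved the other way, 48 of 76 higher and 1 lower, with a median of 0.59. Atp5b, a subunit of ATP synthase, stood at 1982, 1992 and 2039 CPM and at 1013, 886 and 926 CPM (log2 change 1.02, SE 0.12, adjusted p = 3.02e-05). Genes of cilia were lower for 35 and higher for 5 of 51. Proteasome subunits showed no common direction, with 10 higher, 7 lower and 20 not called.

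The cytoskeleton held the pair Krt20 and Krt7. Krt20, the keratin of mature gut cells, stood at 428, 444 and 439 CPM in Tamoxifen and at 1.08, 1.19 and 1.87 CPM in DMSO (log2 change 8.23, SE 0.18, adjusted p = 1.32e-10), and Krt7, the keratin of ducts, at 354, 347 and 351 CPM and at 1165, 1256 and 1132 CPM (log2 change -1.83, SE 0.12, adjusted p = 1.7e-07). Myo1a, the motor protein of the brush border, stood at 593, 594 and 585 CPM and at 0.541, 0.635 and 0.819 CPM (log2 change 9.72, SE 0.23, adjusted p = 2.07e-10). The common reference genes are of limited use between these groups. Actb, cytoplasmic actin, stood at 3169.6, 3309.8 and 3306 CPM and at 772, 738 and 842 CPM (log2 change 1.99, SE 0.12, adjusted p = 1.16e-07). Of 15 reference genes 7 were higher, 2 lower and 6 not called, among the latter Hprt at 178, 181 and 181 CPM and at 201, 188 and 176 CPM (log2 change -0.13, SE 0.11, adjusted p = 0.331) and Ywhaz at 466, 451 and 458 CPM and at 448, 393 and 425 CPM (log2 change 0.05, SE 0.10, adjusted p = 0.658).

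**Figure D4:**
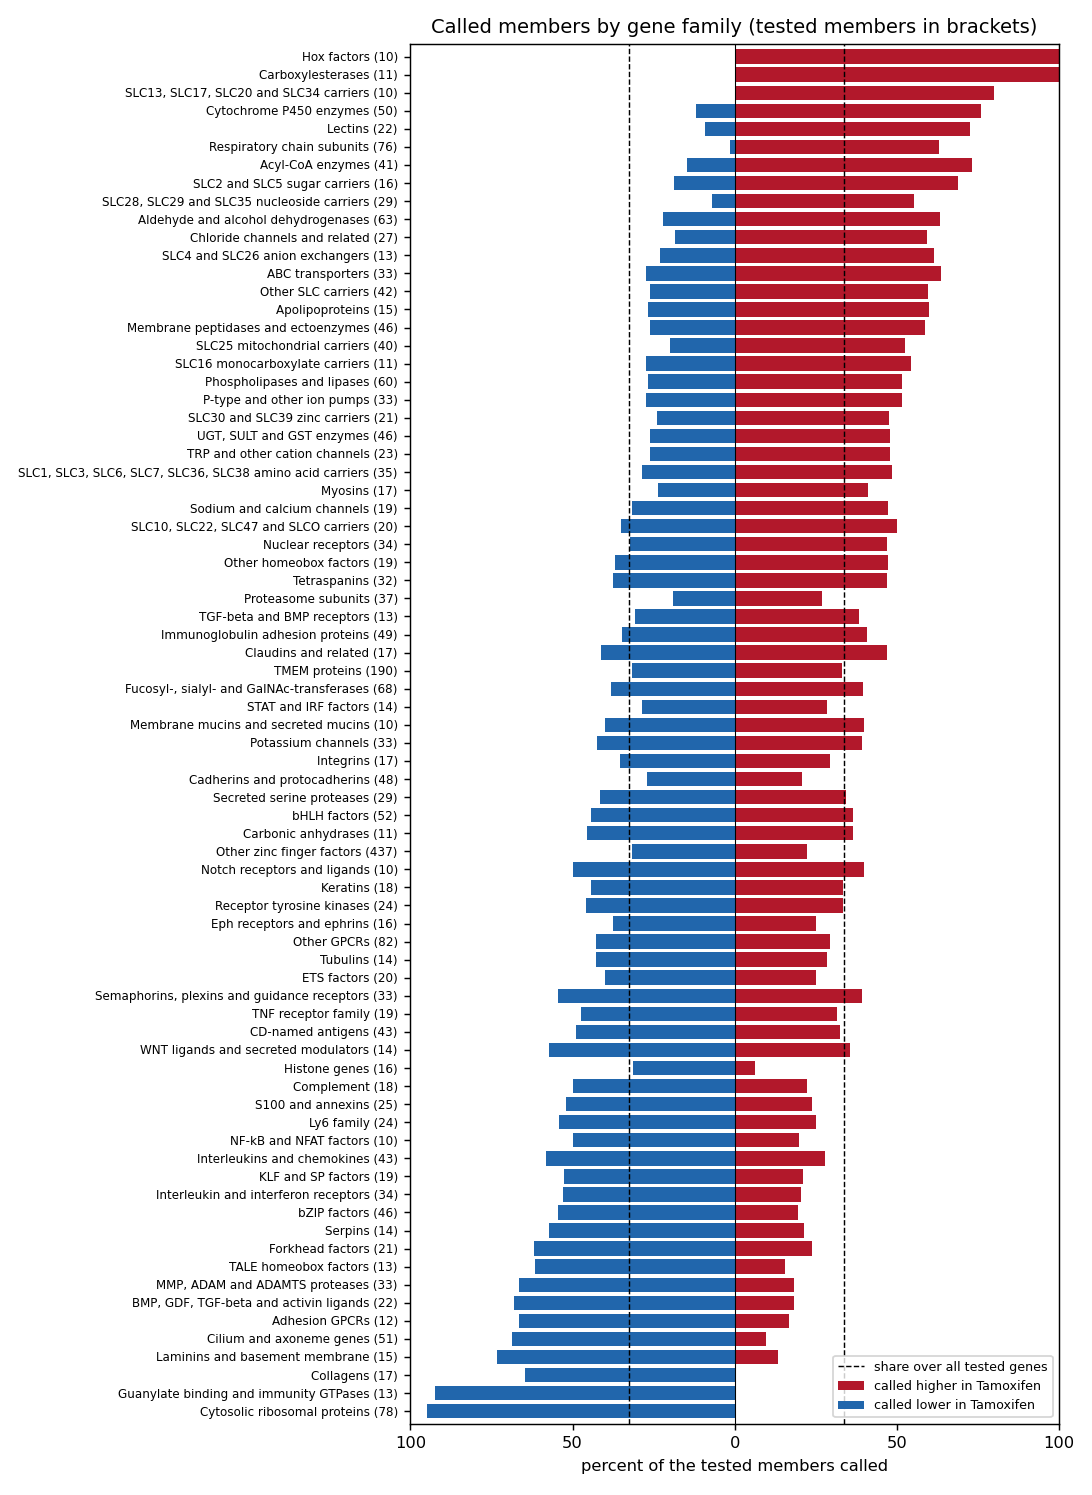
Percentage of the tested members of each family with at least 10 of them that were called higher (right) or lower (left) in Tamoxifen, with dashed lines at the values over all tested genes, 33.9% and 32.4%. Hox factors, carboxylesterases and the SLC13, SLC17, SLC20 and SLC34 carriers extend furthest to the higher side, and ribosomal protein, interferon-induced GTPase and laminin genes to the lower side.

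The labelled tissue was checked against marker genes. Both groups were epithelial. Epcam, the general epithelial adhesion molecule, stood at 1635, 1639 and 1688 CPM in Tamoxifen and at 398, 511 and 537 CPM in DMSO (log2 change 1.71, SE 0.15, adjusted p = 2.2e-06), and Krt19 at 1906, 1892 and 1924 CPM and at 1502, 1842 and 1817 CPM (log2 change 0.08, SE 0.14, adjusted p = 0.632). Of 19 genes of intestinal identity 16 were higher in Tamoxifen, 2 were lower (Gata5 and Onecut2) and 1 (Gata6) was not called. Their summed level was 9471 to 9518 CPM in Tamoxifen and 968 to 1151 CPM in DMSO. In DMSO several defining markers were at or near 0. Isx had no read, Cdx1 and the fatty acid binding protein gene Fabp1 had 1 read each, and the brush border protein gene Cdhr5 stood at 0.710, 0.596 and 0.787 CPM against 641, 645 and 632 CPM (log2 change 9.76, SE 0.17, adjusted p = 6.67e-11). Vil1, whose promoter drives the Cre, stood at 1269, 1251 and 1246 CPM and at 222, 187 and 259.7 CPM (log2 change 2.43, SE 0.14, adjusted p = 7.6e-08). By these markers the DMSO libraries go against a label of gut epithelium in part, and they are called here by their label only.

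Markers of other tissues moved in both directions. Of 17 tested bile duct genes 9 were lower in Tamoxifen and 6 higher. On the lower side Bicc1, a kidney and bile duct cyst gene, stood at 0.100, 0.325 and 0.429 CPM in Tamoxifen and at 477, 357 and 419.7 CPM in DMSO (log2 change -10.57, SE 0.31, adjusted p = 6.19e-10), and Pkhd1, the gene of recessive polycystic kidney disease, at 0.100, 0.0651 and 0.0358 CPM and at 9.91, 11.6 and 11.54 CPM (log2 change -7.32, SE 0.30, adjusted p = 6.07e-09). On the higher side stood Cftr and Slc10a2, whose values are given above, while Sctr, the secretin receptor of bile ducts, had 1 read in Tamoxifen and none in DMSO. Of 16 stomach markers that the table lists, 4 had enough reads to test, and Gkn1, Tff2, Atp4b and Sox2 had no read in either group. Of the 4, 1 was higher and 2 lower. Atp4a was lower, at 1.94, 1.63 and 1.61 CPM in Tamoxifen and at 3.48, 4.69 and 4.29 CPM in DMSO (log2 change -1.33, SE 0.19, adjusted p = 9.61e-05). Pgc was not called, at 2.87, 2.08 and 2.11 CPM and at 17.5, 1.51 and 1.41 CPM (log2 change -1.59, SE 0.84, adjusted p = 0.120). Anxa10, an annexin of gastric epithelium, stood at 16.2, 16.1 and 13.2 CPM and at 0.0338, 0.0397 and 0.164 CPM (log2 change 7.40, SE 0.49, adjusted p = 2.92e-07), and Ctse, a gastric protease, at 0.167, 0.748 and 0.572 CPM and at 74.7, 84.3 and 89.9 CPM (log2 change -7.44, SE 0.32, adjusted p = 7.83e-09). Of 8 tested pancreas genes 3 were higher and 4 lower. Of the pancreatic enzyme genes, Cpa1, Prss1 and Pnlip had no read in either group. Cela1 had reads in both and was not called, at 4.55, 4.10 and 4.79 CPM and at 4.97, 5.76 and 5.93 CPM (log2 change -0.38, SE 0.23, adjusted p = 0.173). Of 19 kidney tubule genes 6 were tested, 2 higher and 3 lower. Pax8 was present in both groups and not called, at 4.85, 4.10 and 4.54 CPM and at 4.74, 4.88 and 3.93 CPM (log2 change -0.07, SE 0.27, adjusted p = 0.815). Umod and Slc12a1 had no read in either group and Pax2 had 2 reads in DMSO, while Cubn, an endocytic receptor of kidney and ileum, stood at 92.0, 107 and 79.7 CPM and at 0.0677, 0.159 and 0.0983 CPM (log2 change 9.66, SE 0.24, adjusted p = 2.36e-10). Of 8 tested liver genes 5 were higher and 2 lower. The summed level of the liver list was 2217 to 2322 CPM in Tamoxifen and 6.09 to 12.4 CPM in DMSO. Apoa1, given above, and Cps1, a urea cycle enzyme also found in gut epithelium, at 562, 560.1 and 571 CPM against 1 read (adjusted p = 2.73e-08), made up most of the Tamoxifen sum. Albumin had 3 reads in each group. Of 10 tested squamous genes 1 was higher and 6 lower. Ivl, involucrin of squamous epithelium, stood at 0.301, 0.553 and 0.429 CPM and at 78.9, 90.4 and 90.7 CPM (log2 change -7.71, SE 0.23, adjusted p = 6.69e-10), with Trp63, which defines squamous basal cells, at 0 reads in all 6 libraries.

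Non-epithelial cells left few reads. Markers of fibroblasts and muscle, 15 genes, summed to 5.17 to 6.50 CPM in Tamoxifen and to 1.52 to 2.43 CPM in DMSO, with Thy1 at 0 reads in Tamoxifen and none of the 15 at 0 in DMSO. Vim stood at 1.24, 0.781 and 1.04 CPM and at 0.0338, 0.119 and 0.164 CPM (log2 change 3.15, SE 0.52, adjusted p = 0.000335). Markers of endothelium and blood, 15 genes, summed to 19.9 to 21.04 CPM in Tamoxifen and to 0.893 to 1.37 CPM in DMSO. Lyz2, a lysozyme of macrophages and Paneth cells, made up most of that sum in Tamoxifen, at 17.6, 16.7 and 17.6 CPM and at 0.0677, 0.199 and 0 CPM in DMSO (log2 change 7.58, SE 0.40, adjusted p = 4.04e-08). Of each list few genes had enough reads to test, 4 and 3. Cdh5 of endothelium and Adgre1 of macrophages had no read in Tamoxifen, and Ptprc, carried by all white blood cells, had 2. In DMSO Ptprc, Adgre1 and Cd3e had no read. The part of such cells in the differences was not tested.

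Tamoxifen is a ligand of the oestrogen receptor, and 11 of 16 genes of the receptor and its known targets were tested. Of these 5 were higher and 4 lower. Esr1, the receptor itself, stood at 49.5, 53.1 and 50.1 CPM in Tamoxifen and at 3.89, 2.86 and 3.70 CPM in DMSO (log2 change 3.80, SE 0.23, adjusted p = 1.4e-07). Greb1, a cofactor of the receptor, stood at 32.9, 32.5 and 29.3 CPM against no read (at least 898-fold higher, adjusted p = 2.39e-09), and Myb at 31.3, 30.3 and 29.2 CPM and at 0.102, 0.119 and 0.0328 CPM (log2 change 8.39, SE 0.33, adjusted p = 4.31e-09). Ccnd1, cyclin D1, went the other way, with 323, 305 and 313 CPM and 1300.5, 933 and 947 CPM (log2 change -1.82, SE 0.19, adjusted p = 9.95e-06), as did Ctsd, cathepsin D, with 849.6, 825 and 846 CPM and 1855, 1777 and 1736 CPM (log2 change -1.16, SE 0.11, adjusted p = 5.77e-06). Pgr, a classical target, had 1 read in Tamoxifen and 3 in DMSO. These targets did not share a direction, and the treatment cannot be told apart from the code and the Cre here.

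Sex-linked genes were compared as a check of origin. Xist, transcribed from the inactive X, had 4 reads in Tamoxifen and none in DMSO. The Y-linked genes Ddx3y, Eif2s3y, Kdm5d and Uty had reads in all 6 libraries. Ddx3y was lower in Tamoxifen (log2 change -0.70, SE 0.12, adjusted p = 0.000445) and Eif2s3y higher (log2 change 0.75, SE 0.12, adjusted p = 0.000235), and Uty and Kdm5d were not called, Kdm5d at 39.3, 34.8 and 32.3 CPM and at 30.6, 31.6 and 39.9 CPM (log2 change -0.01, SE 0.15, adjusted p = 0.964). Imprinted genes, of which 22 of 31 were tested, were higher for 8 and lower for 10. H19, a maternally expressed RNA, stood at 4.33, 6.49 and 4.62 CPM in Tamoxifen and had 2.5 reads in DMSO, a fraction as the table gives it (adjusted p = 7.1e-07). Peg3, paternally expressed, stood at 1.17, 1.01 and 1.04 CPM and at 8.396, 5.003 and 7.21 CPM (log2 change -2.74, SE 0.22, adjusted p = 1.33e-06).

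Some genes with large differences lay side by side along chromosomes. Among 14748 tested protein-coding and lncRNA genes in genome order, runs of at least 4 neighbours were sought in which each was called with an absolute log2 change above 3 in the same direction. There were 25 runs, 14 on the higher side with 101 genes and 11 on the lower side with 48, which together held 149 of the 1940 ordered genes past that size. The number of runs was not compared with that of a shuffled gene order. Members at or near 0 reads in one group, as in the Hoxb and defensin runs, were tested through the other group alone. Coordinates are on GRCm38.p6. The longest was the alpha-defensin cluster of Paneth cells (chr8:21025545-21735471, 26 genes), whose summed level was 3325 to 3377 CPM in Tamoxifen and 0.119 to 0.338 CPM in DMSO. The Hoxb cluster (chr11:96251660-96347930, 8 genes) summed to 35.96 to 41.6 CPM against 0 to 0.0397 CPM. A run of the alkaline phosphatase genes Alppl2, Alpi and Akp3 with their neighbours Ecel1 and LOC115487106 (chr1:87086690-87157085, 5 genes) summed to 759 to 850 CPM against 0 to 0.0819 CPM. In the major histocompatibility region a run joined the class II genes H2-Ab1 and H2-Eb1 to Btnl2, Btnl1, Btnl4 and Btnl6 (chr17:34263227-34557313, 8 genes).

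On the lower side the runs included the interleukin receptor cluster Il1r1, Il1rl2, Il18r1 and Il18rap (chr1:40222480-40551707), the chemokine cluster from Cxcl5 to Cxcl2 (chr5:90759298-90905938) and the guanylate binding protein cluster from Gbp8 to Gbp6 (chr5:105012513-105295871). The longest run by distance joined unrelated genes, Unc13c, Wdr72, Onecut1 and 3 predicted genes (chr9:73479422-74889648). Wdr72, known from tooth enamel and kidney, had 1 read in Tamoxifen and stood at 18.4, 31.9 and 36.6 CPM in DMSO (2561-fold lower, 95% counting interval 459 to 101196, adjusted p = 3.22e-08). Gm16551, a lncRNA next to Onecut1, had no read in Tamoxifen and stood at 22.04, 17.2 and 19.7 CPM in DMSO (at least 580.0-fold lower, adjusted p = 6.07e-09). The imprinted Dlk1-Dio3 region gave a run of Meg3, Rian, Dio3os and Dio3 (chr12:109540996-110281097). Meg3 stood at 0.0167, 0.0651 and 0.143 CPM and at 5.75, 2.60 and 5.22 CPM (log2 change -6.04, SE 0.56, adjusted p = 3.97e-06), and Dio3os had no read in Tamoxifen and stood at 6.85, 6.47 and 7.54 CPM in DMSO (at least 205-fold lower, adjusted p = 1.32e-06). The search for runs was set after values were seen. Neighbours in a cluster often are copies of each other and share reads, in particular the defensin, Cyp2c, Ces, Clca4a with Clca4b and Muc3 with Muc3a genes, so they are not separate observations and the split among copies is uncertain.

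**Figure D5:**
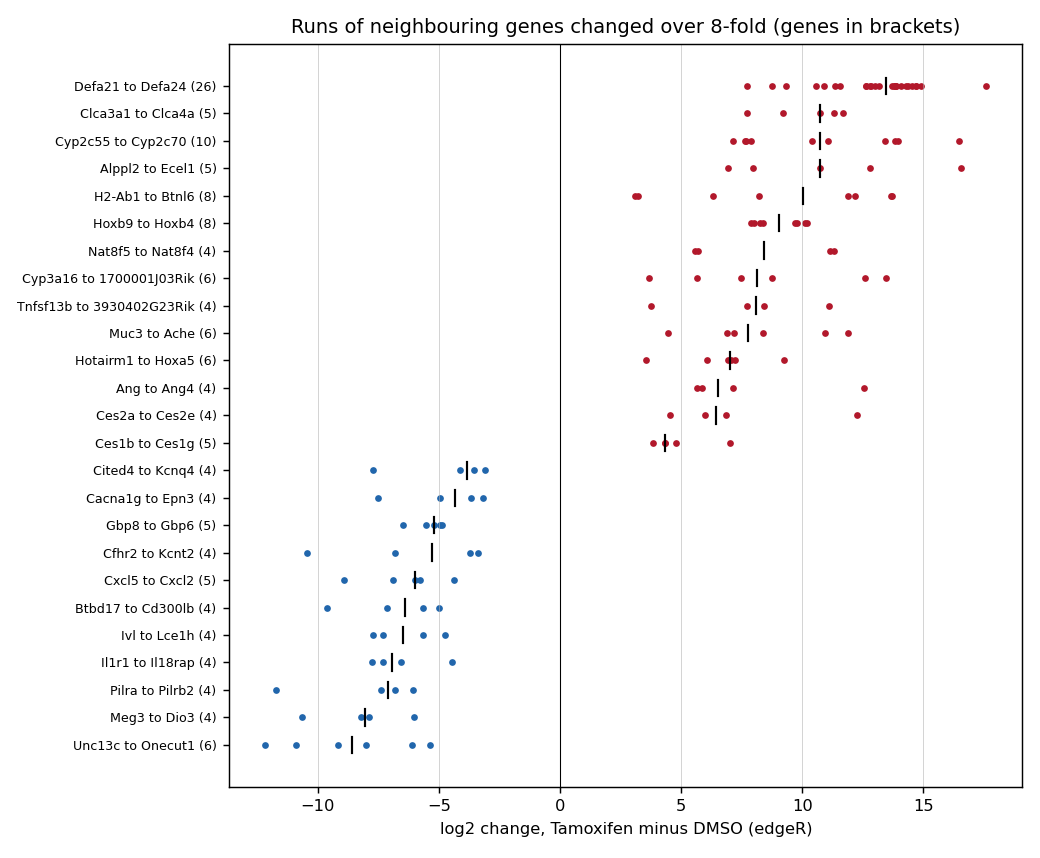
Log2 change of each gene in the 25 runs of neighbouring genes that were all called past a log2 change of 3 in the same direction, one row per run with its median as a bar. The defensin run of 26 genes is the longest, and 14 runs lie on the higher side and 11 on the lower.

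Long non-coding RNAs were higher for 446 and lower for 309 of 1177 tested. The largest rise among them was Gm2061 at 49.1, 49.8 and 47.5 CPM against no read in DMSO (at least 1387-fold higher, adjusted p = 4.18e-08), and AI427809 stood at 11.2, 11.1 and 12.4 CPM against no read (at least 328-fold higher, adjusted p = 7.15e-08). Some host microRNAs. Reads over a microRNA gene in these poly(A) libraries come from longer RNA, its precursor or an overlapping gene, and not from the mature microRNA. Of 82 such genes tested 12 were higher and 21 lower, and most were not called. Both shares were below the 33.9% and 32.4% over all tested genes. Mir194-1 (chr1:185313319-185313385) and Mir215 (chr1:185313581-185313692) lie next to each other and had 154 and 235 reads in Tamoxifen and none in DMSO or nativ. Mir192 (chr19:6264844-6264932), in the second copy of this cluster, had 22 reads in Tamoxifen and none in DMSO or nativ, too few to be tested. On the other side, Mir100hg (chr9:41376526-41615185), the host of Mir100, Mirlet7a-2 and Mir125b-1, had no read in Tamoxifen, stood at 3.89, 2.7 and 6.82 CPM in DMSO and had 403 reads in nativ (adjusted p = 3.53e-05). The mature microRNAs of these loci are printed from RefSeq on GRCm38.p6, 5′ to 3′ with the seed, bases 2 to 8, in capitals, to name what these loci encode. Mir100, Mirlet7a-2 and Mir125b-1 themselves had no read in any of the 3 groups, so on the lower side only the host RNA was measured. They were chosen after values were seen.
miR-194-5p: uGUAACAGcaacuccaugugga
miR-215-5p: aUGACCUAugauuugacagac
miR-192-5p: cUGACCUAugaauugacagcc
miR-100-5p: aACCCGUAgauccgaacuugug
miR-125b-5p: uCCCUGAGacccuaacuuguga

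miR-192-5p and miR-215-5p share the seed UGACCUA and are known from gut, liver and kidney epithelium, and the other 3 have seeds of their own. Mir194-1 and Mir215 lie within Iars2, a mitochondrial tRNA synthetase gene on the opposite strand. Iars2 had reads in all libraries, at 148, 153 and 148 CPM in Tamoxifen and at 111, 90.9 and 104 CPM in DMSO (log2 change 0.49, SE 0.09, adjusted p = 0.000477). The strand setting of the counting is not given in the sources used here, so reads of the microRNA precursor and of its antisense host cannot be told apart by the label alone.

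The DMSO libraries differed among themselves for a small set of genes. Of 11184 genes whose DMSO mean reached 5 CPM, 24 (0.215%) had a 4-fold or larger range between the 3 libraries, against 0 of 11416 in Tamoxifen. Replicate 1 was the highest library for 8 of the 24 and the lowest for 12, and replicate 3 was the highest for 16. The water channel gene Aqp1 stood at 424, 89.7 and 17.2 CPM in DMSO and at 90.3, 87.2 and 93.6 CPM in Tamoxifen, so the DMSO libraries enclosed the Tamoxifen values and the gene was not called (log2 change -1.02, SE 0.87, adjusted p = 0.320; log2 change 0.65 without DMSO replicate 1). Dmbt1, a mucosal defence glycoprotein, was highest in replicate 3, with 12.5, 48.8 and 174 CPM in DMSO and 12.7, 12.5 and 11.2 CPM in Tamoxifen (log2 change -2.75, SE 0.77, adjusted p = 0.00873), and without that replicate the log2 change was -1.44 and the gene was not called (adjusted p = 0.0517). Pigr, the carrier of IgA through epithelium, was also highest in replicate 3, with 1.96, 9.77 and 25.1 CPM in DMSO and 1382, 1422 and 1389.8 CPM in Tamoxifen (log2 change 6.76, SE 0.70, adjusted p = 9.78e-06). The oxidase gene Duox2 stood at 56.4, 128 and 251 CPM in DMSO and at 54.7, 59.1 and 47.96 CPM in Tamoxifen (log2 change -1.49, SE 0.41, adjusted p = 0.00796; log2 change -0.88 without DMSO replicate 3). Replicate 3 was also the highest DMSO library for Lcn2 and C3. Nqo1, a detoxifying reductase, was highest in DMSO replicate 1, with 118, 33.99 and 28.6 CPM against 115, 113 and 113 CPM in Tamoxifen (log2 change 0.87, SE 0.41, adjusted p = 0.0860), and it was called higher without that replicate (log2 change 1.78, adjusted p = 1.56e-06), with limma-voom (adjusted p = 0.0237) and with a replicate block (adjusted p = 0.0220). Dmbt1, Pigr, Duox2 and Nqo1 were chosen after their values were seen.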

How the data were processed

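RNA was sequenced from poly(A)-selected libraries, per the labels' protocols. The authors deposited 1 table of estimated counts, reads per gene not scaled between libraries, in which 11.0 to 12.9% of the values of the 6 compared libraries hold fractions. The submitters' processing notes name the build GRCm38.p6, featureCounts 1.6.4, STAR 2.7.2b, cutadapt 2.5, bcl2fastq 2.20.0.422 and DESeq2, and the strand setting is not given in the sources used here. Reads from a gene and an overlapping or antisense gene may therefore not be separable, nor may those of near-identical copies.

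Counts were rounded to whole numbers and fitted with edgeR 4.0.16 in R 4.3.3 over the 9 organoid libraries, with TMM factors, filterByExpr by group and the robust quasi-likelihood F test, two-sided, with no covariate. Benjamini-Hochberg adjustment ran over all 16449 tested genes and a gene was called at an adjusted p under 0.05. The standard error of a log2 change is its size divided by the square root of F. Levels are CPM, counts scaled to a library total of 1000000. A gene was on in a group from a mean of 5 CPM and off at 3 reads or fewer over its 3 libraries. Counting intervals on fold changes are exact binomial intervals at 95% on the pooled reads of both groups, scaled by the library totals. Intervals and floors cover counting error only.

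Genes were named by a rule: Jup; in each of 3 classes (transcription factors, transporters, surface proteins) the 8 called genes with the largest change in each direction among those with 5 CPM in the higher group and no overlap between groups; per family and direction up to 2 called members of highest level; the 10 most abundant genes of each group; all members of 16 lists; the 5 most abundant class genes with a 95% interval within 0.5 of 0 on the log2 scale; and, outside families and lists, the 10 genes and 5 long non-coding RNA genes with the largest change in each direction. The text gives a part of these, and a few are not reported here. The comparison, lists and 105 symbol-based families were chosen with earlier results of these data known, and a few family patterns were corrected after values were seen to drop wrongly matched genes. Gene pairs, neighbouring runs, miRNA hosts and promoter motifs were chosen after values were seen.

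On simulated data for Tamoxifen against DMSO, with 15261 genes fitted, the test recovered 84% of 100 genes given a log2 change of 1 in either direction. It recovered 100% of 100 genes given 2, with 11 false calls. All groups were drawn from the T75 means with the same spread per gene, and the other genes were left unchanged. The simulation therefore does not cover a comparison in which most genes differ or the groups differ in spread, as here. Each library was counted as 1 sample. Between replicates no pair agreed within sampling noise, with a chi-square per degree of freedom of 2.2 to 3.68 in Tamoxifen and 28.6 to 55.9 in DMSO. This does not show that the libraries come from separate animals or cultures. The alternatives used DESeq2 1.42.0 and limma 3.58.1 (voom), other scaling factors and filters, only the 6 compared libraries, a replicate block and leaving out each library. The 6 gut tissue libraries were not used here.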

Additional observations from a re-analysis of the deposited data

How the results depend on the processing

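The 10907 called genes became 11052 with DESeq2, 10972 with limma-voom, 10914 with RLE factors, 10613 with library totals, 11554 without a filter, 9974 with a filter of 1 CPM in 3 libraries, 11575 with only the 6 compared libraries and 9753 to 10929 when 1 library was left out. Those called with over 2-fold change, 5808, ranged from 4880 to 6874 over these settings, and from 5711 to 6061 when 1 library was left out. Genes on in one group and off in the other, 211 (177 on in Tamoxifen, 34 in DMSO), became 465 (352 and 113) when on began at 1 CPM and 151 (137 and 14) when it began at 10 CPM, and numbered 216 to 235 without 1 library. The median log2 change of all tested genes was 0.02 with TMM factors and 0.09 with library totals, and the share of calls that were higher in Tamoxifen was 51.1% and 54.8%. With library totals the medians of 4 of 105 families changed sign (carbonic anhydrases, other zinc finger factors, POU factors and tubulins), all of them within 0.07 of 0 with TMM factors, and with RLE factors none did.

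Same-numbered Tamoxifen and DMSO libraries did not deviate together (correlations -0.006, -0.03 and -0.123), so the numbers were not taken to pair them. With a replicate block the fit called 10823 genes, 5790 of them with over 2-fold change.

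Of 253 genes in the text that were tested, 239 kept their direction and their side of the threshold under every setting run. Those that turned direction were not called under the settings that turned them: when 1 library was left out the log2 change ran from -1.57 to 0.65 for Aqp1, from -0.029 to 0.16 for Gata6, from -0.028 to 0.16 for Krt19 and from -0.0960 to 0.098 for Kdm5d. The opposite sign came without DMSO replicate 1 for Aqp1, Gata6 and Krt19, and for Kdm5d without Tamoxifen replicate 3 (0.045), without DMSO replicate 3 and with library totals (0.058). Gata5 lost its call with library totals (adjusted p = 0.0883), Dmbt1 with limma-voom (adjusted p = 0.0599) and without a filter, and Duox2 without a filter (adjusted p = 0.0564). When 1 library was left out the log2 change ran from -3.26 to -1.44 for Dmbt1 and from -1.89 to -0.88 for Duox2, nearest to 0 without DMSO replicate 3. Beside Aldoa and Nqo1, calls were gained by Srebf2 with DESeq2 (adjusted p = 0.0260) and with only the 6 compared libraries (0.0472), and by Slc6a8 (0.0372) and Tmem59 (0.0188) with only those 6. The cause was not tested.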
